A study of Homo sapiens with 12 samples.

Results

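In MKL-1 cells, 83 genes were lower after 6 days of EZH2 inhibition and higher after 12 days. They were picked from the authors' normalized gene table of 28813 genes by 3 conditions. The mean had to be at least 50 in each of the 4 groups, the treated mean at day 6 had to be at most 0.769 of the vehicle mean, and the treated mean at day 12 at least 1.3 times the vehicle mean. The level was met by 11394 genes, so the 83 were 0.728% of them. Of those 11394, 1084 (9.51%) passed the day 6 ratio, 2806 (24.6%) passed the day 12 ratio, and 84 genes met both ratios turned round, higher at day 6 and lower at day 12. The ratios chose the genes, so the directions and sizes below are a description and carry no test, and a gene could only enter when its vehicle level lay in the right place at both days.

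MKL-1 is an established Merkel cell carcinoma line, and polyA-selected RNA was sequenced from 12 libraries, 3 per group. The groups were EPZ011989 at 3 µM for 6 days, vehicle for 6 days, EPZ011989 at 3 µM for 12 days and vehicle for 12 days. EPZ011989 inhibits EZH2, and it was given in ethanol, so all 4 groups held ethanol at 1%. Medium was renewed every 3 days, when the cells were split into larger dishes. The groups come from a single line, and the labels do not say whether the libraries of a group came from separate cultures, so any spread is that between libraries and may be technical.

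Polycomb repressive complex 2, through its enzyme EZH2, places methyl groups on lysine 27 of histone H3 and keeps developmental genes silent. Loss of the mark is gradual, because methylated histones are diluted as cells divide, and a silent gene can become active only when its activators are present.

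The 12 libraries held 15994996 to 20866369 estimated reads. All 12 markers fixed for Merkel and neuroendocrine cells, among them KRT20, ATOH1 and INSM1, had a mean over 1 TPM (a level per transcript length), and their summed level was 2660 to 2700 TPM in treated and 3010 to 3020 TPM in vehicle libraries at day 6, and 2940 to 3010 TPM in treated and 2840 to 3020 TPM in vehicle libraries at day 12. The 5 endothelial markers summed to at most 1.17 TPM in any library. The 6 keratinocyte markers, mostly KRT10, summed to 14.6 to 15.5 TPM in treated and 10.9 to 24.1 TPM in vehicle libraries at day 6, and to 10.2 to 20.2 TPM in treated and 10.6 to 15.0 TPM in vehicle libraries at day 12, with KRT1 listed at 0 in every group. The 6 leukocyte markers summed to 5.17 to 6.83 TPM in treated and 19.6 to 24.3 TPM in vehicle libraries at day 6, where CD79B alone averaged 2.66 TPM in treated and 17.6 TPM in vehicle cells, and to 2.99 to 3.56 TPM in treated and 7.99 to 14.2 TPM in vehicle libraries at day 12. The 6 fibroblast markers, mostly DCN, summed to 27.2 to 35.9 TPM in treated and 15.4 to 18.3 TPM in vehicle libraries at day 6, and to 23.3 to 26.2 TPM in treated and 7.94 to 22.6 TPM in vehicle libraries at day 12. The part of these markers in the results was not tested. In bulk RNA, fewer cells of a type and less RNA per cell cannot be told apart.

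The promoters of 4 of the 12 highest-ranked genes are shown because they differ in their number of GC boxes (RefSeq, GRCh38.p14, 250 bases before to 50 after the annotated start, on the gene's strand). Capitals mark the GC box, GGGCGG or its reverse complement CCGCCC, the motif bound by SP and KLF factors. The windows are chr11:15112174-15112473 (plus strand) for INSC, chr5:132012164-132012463 (minus) for ACSL6, chr3:48595280-48595579 (minus) for COL7A1 and chr11:417348-417647 (minus) for SIGIRR. INSC and ACSL6 hold no GC box, COL7A1 holds 3 and SIGIRR 6.
INSC: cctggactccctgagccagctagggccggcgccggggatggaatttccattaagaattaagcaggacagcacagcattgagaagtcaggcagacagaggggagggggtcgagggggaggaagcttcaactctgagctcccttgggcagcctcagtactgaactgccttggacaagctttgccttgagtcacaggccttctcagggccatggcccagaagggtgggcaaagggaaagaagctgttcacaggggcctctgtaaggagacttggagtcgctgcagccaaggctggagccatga
ACSL6: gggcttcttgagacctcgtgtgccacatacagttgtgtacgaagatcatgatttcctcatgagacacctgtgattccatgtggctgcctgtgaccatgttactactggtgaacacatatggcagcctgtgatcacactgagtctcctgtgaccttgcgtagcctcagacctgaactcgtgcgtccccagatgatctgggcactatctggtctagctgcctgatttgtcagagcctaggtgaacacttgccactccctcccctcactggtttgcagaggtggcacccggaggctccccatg
COL7A1: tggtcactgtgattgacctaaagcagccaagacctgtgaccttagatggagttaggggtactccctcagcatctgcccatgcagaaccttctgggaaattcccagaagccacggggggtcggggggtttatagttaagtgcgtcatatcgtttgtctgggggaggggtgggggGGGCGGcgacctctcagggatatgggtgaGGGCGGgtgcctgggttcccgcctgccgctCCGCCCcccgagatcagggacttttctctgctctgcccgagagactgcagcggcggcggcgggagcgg
SIGIRR: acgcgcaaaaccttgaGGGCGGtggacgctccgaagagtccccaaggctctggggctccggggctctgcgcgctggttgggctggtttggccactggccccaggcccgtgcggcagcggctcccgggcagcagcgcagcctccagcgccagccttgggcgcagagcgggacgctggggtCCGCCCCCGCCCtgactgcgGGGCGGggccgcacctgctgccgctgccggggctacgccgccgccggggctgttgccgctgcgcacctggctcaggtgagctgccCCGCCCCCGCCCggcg
Among the 66 of the 83 genes with a RefSeq promoter, a GC box stood in 71.2%, against 71.5% of the 9153 promoters of genes at the same level and 45.0% of all 35116 promoters. CpG-rich promoters (at least 50% GC and an observed-to-expected CpG ratio of at least 0.6) made up 69.7% of the 66 and 83.5% of the promoters at the same level. The CCAAT box (CCAAT or ATTGG) stood in 39.4% against 37.5% at the same level. No ATF4 amino acid response element was found in the 66, and 0.503% of the promoters at the same level held one. These matches describe letters in a window of 300 bases.

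The values below are the authors' normalized values, in the units of their table. Between genes they are not comparable, because a longer gene collects more reads. The genes were ranked by the smaller of their day 6 and day 12 log2 ratios, signs ignored. The first are therefore those furthest past both limits in the group means of these values. Over the 24 highest-ranked genes the day 6 ratio of treated to vehicle means ran between 0.374 and 0.692 and the day 12 ratio between 1.45 and 5.8.

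**Figure D1:**
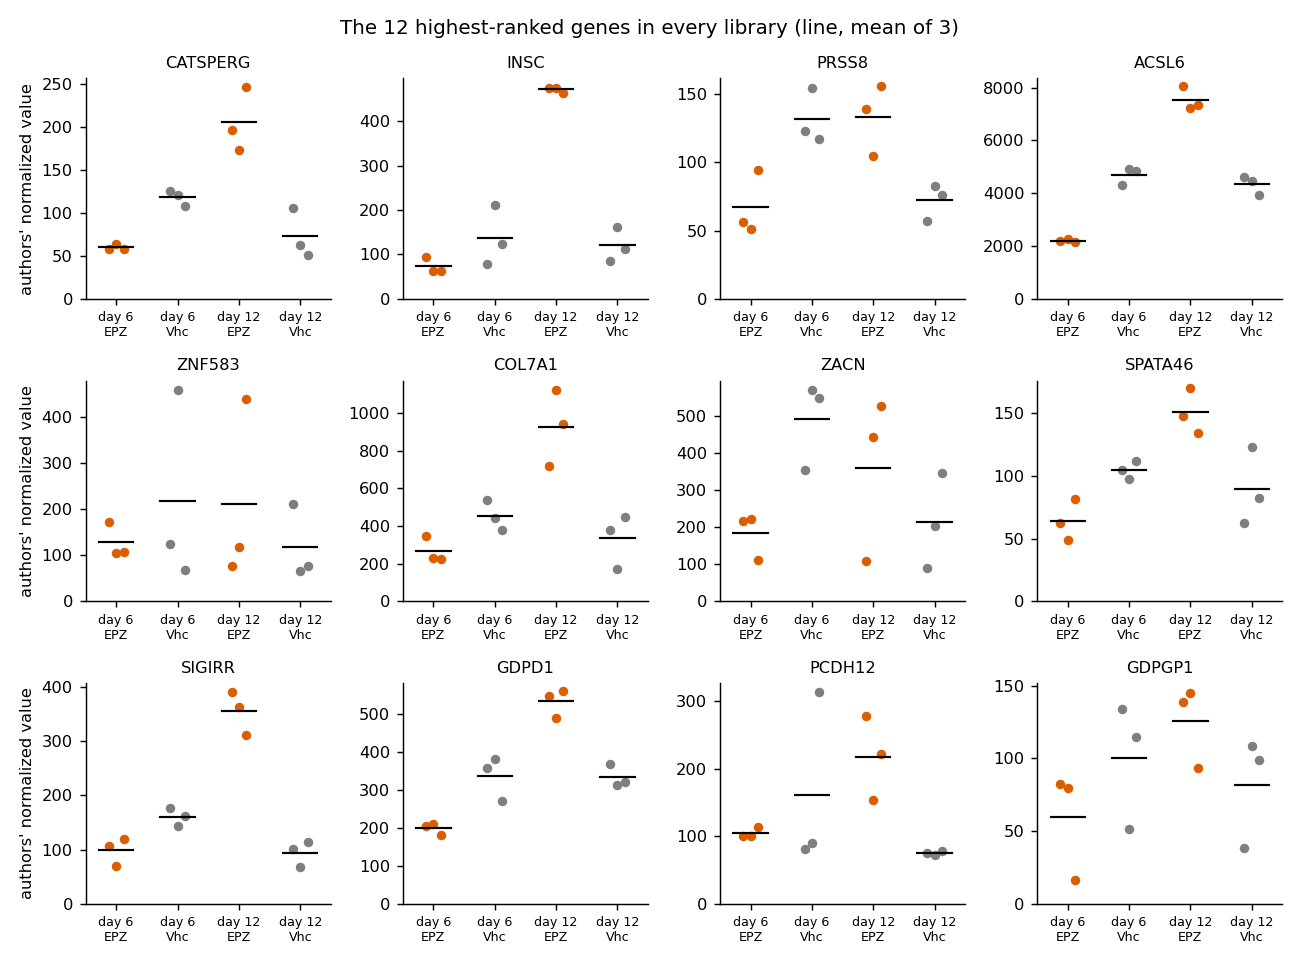
Authors' normalized values (y axis, linear, starting at 0) of the 12 highest-ranked genes in each of the 3 libraries of the 4 groups (x axis; EPZ, 3 µM EPZ011989; Vhc, vehicle). Points are libraries and lines are means of 3. The libraries of ACSL6 lie close together in each group. Single libraries set the day 6 vehicle means of PCDH12 and ZNF583 and the day 12 treated mean of ZNF583.

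Among genes of the matrix and the cell membrane, COL7A1 encodes collagen VII, which forms the anchoring fibrils beneath the epidermis. It had 347.4, 229.8 and 226.5 in treated and 538.5, 444.1 and 380.8 in vehicle libraries at day 6. At day 12 the values were 718.5, 1123.5 and 941.5 in treated and 379.1, 173.6 and 448.8 in vehicle libraries. In these values the groups did not overlap at either day, and the treated level at day 12 was also above every day 6 vehicle library. In read sums, given further below, the day 6 groups of COL7A1 overlapped. SIGIRR encodes an inhibitory member of the interleukin-1 receptor family. Its values at day 6 were 107.1, 70.3 and 120.2 in treated and 177.5, 142.6 and 162.6 in vehicle libraries. At day 12 they were 390.4, 363.0 and 312.0 in treated and 101.7, 68.0 and 113.2 in vehicle libraries, a ratio of 3.77. Treated libraries were all lower than vehicle at day 6 and all higher at day 12. PRSS8, the membrane-anchored serine protease prostasin, had 56.0, 51.2 and 94.4 in treated and 123.3, 154.8 and 117.0 in vehicle libraries at day 6. By day 12 it had 139.5, 105.0 and 156.3 in treated and 57.3, 82.8 and 76.2 in vehicle libraries. Here the treated mean at day 12 only regained the day 6 vehicle mean (133.6 against 131.7), and the day 12 vehicle libraries lay near the day 6 treated ones.

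ADGRV1, a very large adhesion receptor of sensory hair cells, had 2178.4, 1941.3 and 2075.0 in treated and 3253.6, 3085.8 and 3244.3 in vehicle libraries at day 6. After 12 days its values were 4604.2, 3717.8 and 4412.9 in treated and 2587.9, 3060.5 and 3061.3 in vehicle libraries. Groups were apart at both days, and the vehicle mean hardly differed between the days (2903.2 at day 12 and 3194.6 at day 6). CHRNB1, the beta subunit of the muscle acetylcholine receptor, had 346.9, 320.5 and 294.8 in treated and 511.2, 468.4 and 446.7 in vehicle libraries at day 6. Its day 12 values were 885.3, 747.3 and 793.9 in treated and 414.6, 441.5 and 400.8 in vehicle libraries. All libraries of a group lay on the same side. PCDH12 encodes a protocadherin of vascular endothelium. Its day 6 values were 101.1, 101.1 and 113.9 in treated and 80.6, 90.0 and 314.6 in vehicle libraries. At day 12 they were 277.9, 154.1 and 221.7 in treated and 74.5, 71.7 and 77.7 in vehicle libraries. The day 6 ratio of PCDH12 rests on 1 vehicle library at 314.6, since the other 2 were below every treated library. The day 12 difference did not depend on a single library. ZACN, a zinc-activated ion channel, had 216.6, 223.1 and 110.6 in treated and 353.4, 570.8 and 548.1 in vehicle libraries at day 6. Values at day 12 were 108.3, 442.6 and 525.8 in treated and 90.0, 203.6 and 346.6 in vehicle libraries. ZACN was apart at day 6 and overlapped at day 12. Its exons overlap those of EXOC7 on the other strand.

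Several of the genes act in cell polarity, cilia, sperm or membrane transport. INSC encodes the inscuteable adaptor, which orients the mitotic spindle. It had 95.1, 63.8 and 62.2 in treated and 78.5, 211.6 and 124.0 in vehicle libraries at day 6. At day 12 it had 475.3, 476.3 and 464.9 in treated and 86.0, 162.9 and 113.1 in vehicle libraries, the second largest day 12 ratio of the 24 at 3.91. INSC overlapped at day 6 through 1 vehicle library at 78.5 and was far apart at day 12. CATSPERG, an auxiliary subunit of the sperm calcium channel, ranked first of the 83. Its day 6 values were 58.3, 63.9 and 57.4 in treated and 125.5, 120.9 and 108.1 in vehicle libraries. At day 12 they were 195.7, 172.9 and 246.2 in treated and 105.8, 62.03 and 50.5 in vehicle libraries. Groups of CATSPERG did not overlap at either day. LRRIQ1, named for its leucine-rich repeats and IQ motif, had 110.4, 117.0 and 91.6 in treated and 163.6, 162.9 and 155.4 in vehicle libraries at day 6. By day 12 it had 781.2, 724.5 and 649.4 in treated and 136.2, 124.8 and 110.6 in vehicle libraries, a ratio of 5.8. This was the largest day 12 ratio of the 83.

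EVC, a ciliary protein of Hedgehog signalling, had 460.4, 381.8 and 552.2 in treated and 686.0, 676.3 and 666.7 in vehicle libraries at day 6. Its day 12 values were 957.1, 801.5 and 884.7 in treated and 488.9, 565.1 and 704.9 in vehicle libraries. The groups of EVC were apart at both days, and its exons overlap CRMP1 on the other strand. SEC16B, which organizes exit sites of the endoplasmic reticulum, had 134.7, 122.8 and 140.6 in treated and 181.4, 212.3 and 198.9 in vehicle libraries at day 6. At day 12 its values were 309.9, 277.9 and 337.3 in treated and 176.8, 112.4 and 160.9 in vehicle libraries. RABEP2, an endosomal effector of Rab proteins, had 228.3, 187.0 and 256.3 in treated and 347.1, 283.8 and 346.1 in vehicle libraries at day 6. Neither of these genes overlapped between groups at day 6. RABEP2 had 432.3, 362.9 and 329.4 in treated and 160.0, 186.7 and 237.6 in vehicle libraries at day 12. SPATA46, a spermatogenesis-associated gene, had 62.8, 49.1 and 81.4 in treated and 105.0, 98.0 and 112.3 in vehicle libraries at day 6. Its values at day 12 were 147.8, 169.9 and 134.7 in treated and 62.7, 123.3 and 82.8 in vehicle libraries. The groups of RABEP2, SEC16B and SPATA46 were also apart at day 12, SPATA46 by a small margin.

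Among the enzymes, ACSL6 is a long-chain acyl-CoA synthetase. It had 2184.3, 2255.0 and 2150.7 in treated and 4325.5, 4918.3 and 4827.5 in vehicle libraries at day 6. After 12 days its values were 8055.2, 7244.3 and 7328.2 in treated and 4629.5, 4475.2 and 3926.5 in vehicle libraries. The treated mean at day 6 was 0.468 of vehicle, the lowest ratio after ZACN, and no library of ACSL6 crossed into the other group. GDPD1, a lysophospholipase D, had 205.4, 209.9 and 179.8 in treated and 356.5, 381.3 and 269.3 in vehicle libraries at day 6. Values at day 12 were 547.5, 488.4 and 560.9 in treated and 368.9, 311.4 and 320.3 in vehicle libraries. For GDPD1 the vehicle mean was nearly equal at the days (333.5 at day 12 and 335.7 at day 6), and the groups were apart at both. CHAC1 degrades glutathione and is a target of the integrated stress response. It had 138.4, 176.5 and 225.9 in treated and 241.7, 269.7 and 310.6 in vehicle libraries at day 6. At day 12 it had 290.1, 257.9 and 247.0 in treated and 152.4, 222.7 and 153.9 in vehicle libraries. Its treated mean at day 12 (265.0) stayed below its vehicle mean at day 6 (274.0), so the day 12 ratio came with a lower vehicle level.

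GDPGP1, a GDP-glucose phosphorylase, had 82.3, 80.0 and 16.2 in treated and 133.7, 51.5 and 115.0 in vehicle libraries at day 6. Its day 12 values were 138.6, 145.2 and 93.1 in treated and 38.3, 108.5 and 99.2 in vehicle libraries. GDPGP1 overlapped at both days. JMJD7, a lysyl hydroxylase whose exons are shared with the readthrough gene JMJD7-PLA2G4B, had 66.3, 48.7 and 73.3 in treated and 82.5, 153.1 and 99.1 in vehicle libraries at day 6. The day 12 values were 142.6, 132.4 and 142.5 in treated and 32.6, 131.9 and 110.8 in vehicle libraries. At day 12 its lowest treated library (132.4) was only just above its highest vehicle library (131.9). LRTOMT, known for the catechol methyltransferase of hair cells, had 68.5, 121.96 and 106.4 in treated and 184.0, 96.6 and 177.8 in vehicle libraries at day 6. It had 189.3, 302.2 and 156.5 in treated and 213.9, 117.3 and 115.5 in vehicle libraries at day 12. LRTOMT overlapped at both days, and its exons are shared with LRRC51 and TOMT.

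The regulators were fewer. PPP1R16A, a regulatory subunit of protein phosphatase 1, had 627.9, 533.9 and 550.0 in treated and 755.2, 859.5 and 877.2 in vehicle libraries at day 6. At day 12 its values were 1159.1, 1168.1 and 1134.1 in treated and 744.5, 725.0 and 745.4 in vehicle libraries, with no overlap at either day. FBXW9, a substrate receptor of SCF ubiquitin ligases, had 91.5, 114.8 and 125.3 in treated and 176.2, 149.0 and 167.5 in vehicle libraries at day 6. Its values at day 12 were 256.1, 234.2 and 224.8 in treated and 100.8, 85.2 and 157.6 in vehicle libraries. FBXW9 was apart at both days. CDK3, a cyclin-dependent kinase that shares exons with the readthrough gene TEN1-CDK3, had 201.2, 128.6 and 134.9 in treated and 212.0, 244.7 and 214.6 in vehicle libraries at day 6. Values at day 12 were 271.4, 214.3 and 233.6 in treated and 127.6, 155.4 and 179.1 in vehicle libraries. CDK3 was apart at both days, by a small margin at day 6. ZNF583, a zinc finger protein, had 171.6, 105.8 and 106.4 in treated and 124.3, 459.9 and 68.4 in vehicle libraries at day 6. The day 12 values were 77.1, 117.2 and 441.0 in treated and 212.3, 66.2 and 76.4 in vehicle libraries. A single vehicle library at day 6 (459.9) and a single treated library at day 12 (441.0) made both ratios of ZNF583.

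Of the 24 highest-ranked genes, 18 had no overlap between treated and vehicle libraries at either day. Over all 83, treated libraries lay all below vehicle at day 6 in 60 genes, against 26.5% of the 11394 genes at the level, and all above vehicle at day 12 in 58, against 29.4%. Both held in 47 genes, against 2.32% of all genes at the level, and neither held in 12. The ratios that chose the genes use the same libraries, so nothing is read from these shares. The genes varied more between libraries than others at the level: the median coefficient of variation was 15.6% in treated and 12.2% in vehicle libraries at day 6, against 7.25% and 7.13% for the genes at the level, and 11.9% in treated and 18.9% in vehicle libraries at day 12, against 7.54% and 9.55%. A single outlying library can bring a gene past the ratios, so nothing is read from this spread. The 83 genes also had lower levels, with a median of 13.3 TPM against 31.7 TPM. The 5 highest by TPM were NDUFA1, a subunit of respiratory complex I (mean over groups 285 TPM), FKBP2, a prolyl isomerase of the endoplasmic reticulum (106 TPM), MFNG, a glycosyltransferase that modifies Notch receptors (89.8 TPM), RNASET2, an acid ribonuclease (48.5 TPM), and FAAP100, a subunit of the Fanconi anaemia core complex (46.6 TPM). TPM cover only the transcripts matched here, so the order may miss reads of poorly matched genes such as ACSL6 (32.8 TPM).

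RNASET2 and NDUFA1 show the range of the pattern. RNASET2 had 226.2, 152.4 and 244.6 in treated and 270.8, 296.0 and 250.5 in vehicle libraries at day 6. By day 12 it had 1684.7, 1203.9 and 1496.6 in treated and 320.6, 306.3 and 324.3 in vehicle libraries. The day 6 difference was small and the day 12 ratio was 4.61. NDUFA1 had 363.1, 446.2 and 356.1 in treated and 465.4, 640.6 and 539.7 in vehicle libraries at day 6. After 12 days its values were 382.4, 488.5 and 499.5 in treated and 252.4, 295.8 and 462.5 in vehicle libraries. Its treated level at day 12 remained below its vehicle level at day 6, and the day 12 groups overlapped. FKBP2 had 378.8, 335.1 and 314.6 in treated and 446.7, 510.6 and 549.4 in vehicle libraries at day 6. Its day 12 values were 416.7, 440.3 and 477.5 in treated and 186.3, 299.3 and 444.1 in vehicle libraries. Its day 12 vehicle libraries were spread widely and overlapped the treated ones. MFNG had 1090.8, 948.9 and 924.3 in treated and 1460.4, 1257.3 and 1245.7 in vehicle libraries at day 6. At day 12 it had 1346.0, 1311.3 and 1430.2 in treated and 767.9, 922.4 and 917.9 in vehicle libraries, with no overlap at either day. FAAP100 had 1332.2, 1387.3 and 1343.1 in treated and 1569.1, 2062.0 and 1843.3 in vehicle libraries at day 6. Its values at day 12 were 1613.7, 1510.1 and 1780.2 in treated and 1029.6, 1225.4 and 1475.6 in vehicle libraries. FAAP100 was apart at both days, with a day 12 ratio of 1.31, the smallest of the 83.

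At the ratio limits, the last genes inside at day 6 were TMEM141 (0.768), TIGAR (0.767) and ZNF394 (0.766), and the nearest outside were C1orf226, FLCN and OTUD7B, each at 0.77. At day 12 the last inside were FAAP100 (1.31), CGN (1.32) and FAM214B (1.33), and the nearest outside were DEDD2 (1.3), SMIM29 (1.29) and LTBP2 (1.29), where DEDD2 rounds up to the limit. At the level limit, CIITA (50.6), C3orf18 (52.1) and KBTBD3 (56.0) were inside by their lowest group mean, and DGCR6 (49.1), ANKLE1 (48.3) and KLHDC9 (47.7) outside.

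**Figure D2:**
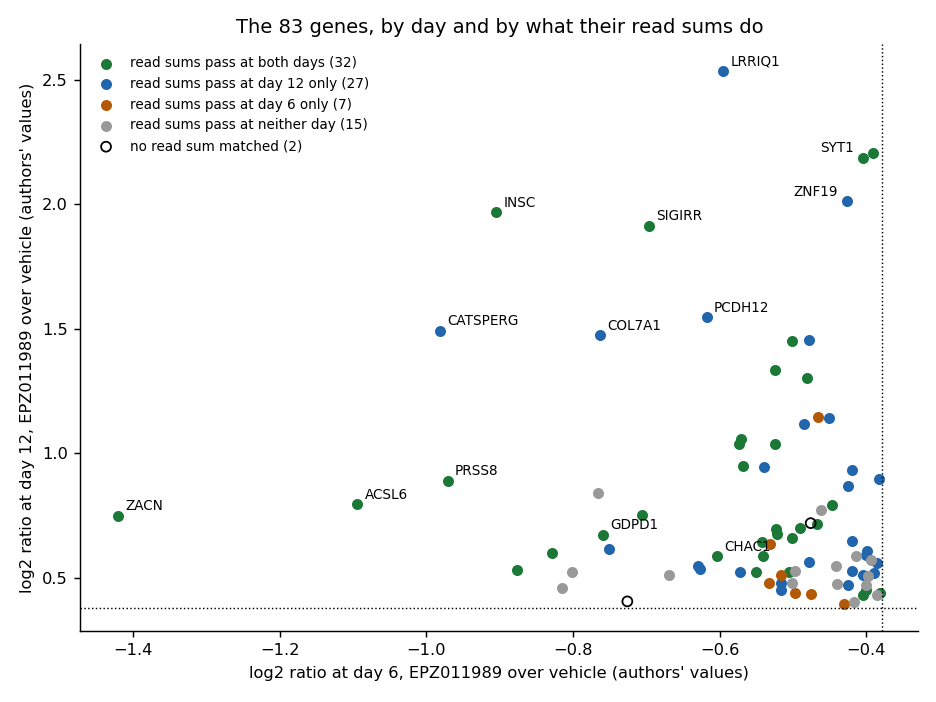
Day 6 (x axis) and day 12 (y axis) log2 ratios of treated to vehicle group means in the authors' table for the 83 genes; dotted lines mark the limits and colours show whether the read sums of a gene pass the same ratios. Most genes sit near the limits, LRRIQ1, RNASET2, SYT1, ZNF19, INSC and SIGIRR are highest at day 12, and ZACN and ACSL6 are lowest at day 6.

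Whether a gene reached the limits depended on how reads were turned into gene values. The authors' values behaved as read sums divided by a relative length. This was the mean effective length of the transcripts to which Salmon assigned the reads, over the gene's own mean across the 12 libraries. It corrects a gene between libraries and leaves longer genes with higher values. Across 11198 genes at the level, the ratio of the authors' value to such length-scaled sums varied between libraries by a median of 0.0101%, against 7.21% for the ratio to plain read sums. A gene's value in the table is therefore higher when the same reads are assigned to shorter transcripts. Of the 83 genes, 81 were matched to read sums here (GATD3A and FAM214B were not). For 12 of the 81 the agreement was poorer than 1%, so their sums may not stand for the authors' entry, and the cause was not tested. These were NFKB2, LRTOMT, INPP5E, FAM161B, ACSL6, INF2, NRG1, ZNF394, SPEG, GCNT2, AZIN2 and B3GALNT2.

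Plain read sums, scaled by TMM and library size to CPM, met both ratios in 32 of the 81 genes. They met the day 12 ratio only in 27, the day 6 ratio only in 7 and neither in 15, although 71 of the 81 lay in the chosen direction at both days. The reads come from the libraries whose ratios chose the genes, so their direction is no support. The matching shares of genes at the level were not counted. Mean transcript length was longer in treated than in vehicle libraries at day 6 in 64 of the 81 genes, against 51.8% of genes at the level, and shorter at day 12 in 45, against 49.7%. A length change of at least 1.3-fold was found at day 6 in 18 of the 81 genes (22.2%, against 2.5% of genes at the level) and at day 12 in 11 (13.6%, against 4.88%). The chosen ratios contain the length, so this describes how the genes entered.

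**Figure D3:**
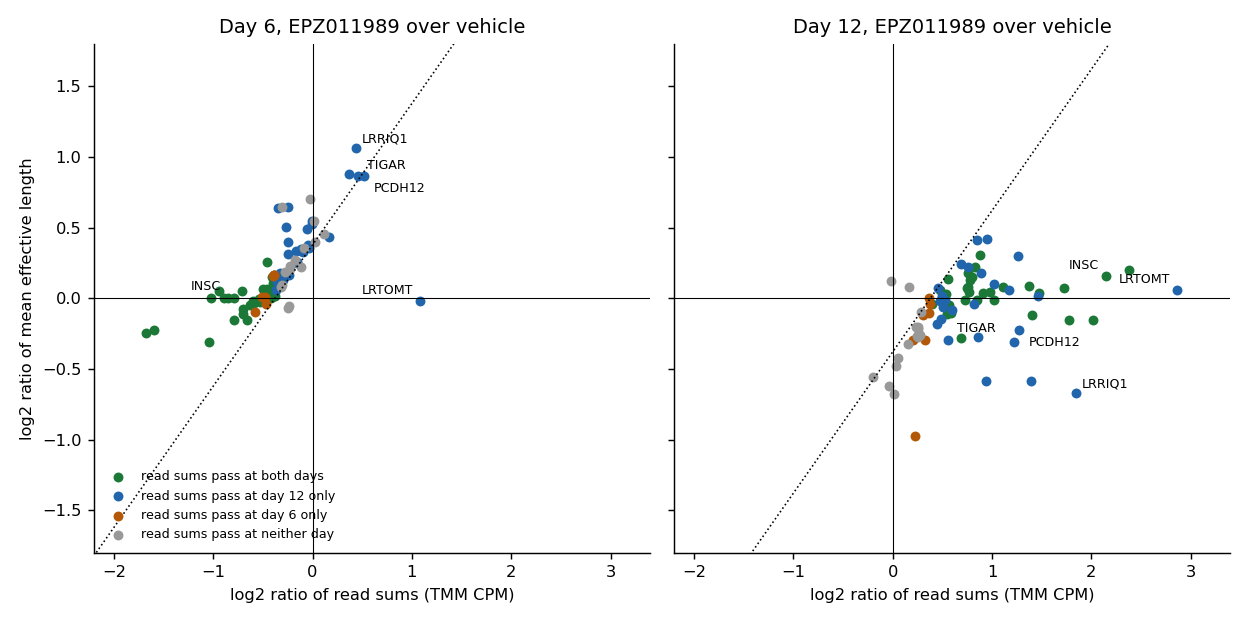
Change of the read sum (x axis, log2 ratio of treated to vehicle mean CPM) and of the mean effective transcript length (y axis, log2 ratio) for 81 genes, at day 6 (left) and day 12 (right). The dotted line is the ratio limit that chose the genes, set on the authors' values, with genes above it at day 6 and below it at day 12 inside; LRRIQ1, PCDH12 and TIGAR had more reads in treated cells at day 6 and passed through longer transcripts.

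In the 32 genes whose read sums met both ratios the median length change was 0.0 (log2) at day 6 and 0.04 at day 12. INSC had 4.31, 4.42 and 3.58 CPM in treated and 5.36, 9.18 and 7.66 CPM in vehicle libraries at day 6. By day 12 it had 30.1, 27.0 and 25.6 CPM in treated and 5.6, 7.46 and 5.6 CPM in vehicle libraries. In CPM the groups of INSC did not overlap at day 6 either. RNASET2 had 12.8, 9.81 and 11.9 CPM in treated and 15.3, 15.4 and 15.3 CPM in vehicle libraries at day 6. After 12 days its values were 98.0, 74.6 and 87.2 CPM in treated and 15.6, 16.9 and 17.4 CPM in vehicle libraries. SYT1, the calcium sensor of synaptic vesicle release, had 17.8, 19.4 and 18.1 CPM in treated and 23.9, 23.5 and 25.5 CPM in vehicle libraries at day 6. Its day 12 CPM were 117.0, 89.1 and 99.2 in treated and 25.2, 26.2 and 23.9 in vehicle libraries. All 3 genes were lower in each treated library at day 6 and several-fold higher in each at day 12. Of the 24 highest-ranked genes, 14 were among the 32, namely INSC, PRSS8, ACSL6, ZACN, SPATA46, SIGIRR, GDPD1, JMJD7, CHAC1, SEC16B, FBXW9, CHRNB1, PPP1R16A and EVC, with ACSL6 among the genes of poor agreement.

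Elsewhere the reads and the length-scaled value parted at day 6. LRRIQ1 had 8.08, 8.72 and 8.37 CPM in treated and 7.29, 5.65 and 5.6 CPM in vehicle libraries at day 6, a log2 ratio of 0.44, where the authors' value was lower in treated cells. At day 12 it had 34.7, 31.4 and 30.7 CPM in treated and 9.33, 8.86 and 8.7 CPM in vehicle libraries, so its day 12 difference held in the reads. The short transcript LRRIQ1-201 (555 bases) took 0% of the gene's TPM in every treated library at day 6, against 39.9, 56.8 and 39.0% in vehicle libraries. The full-length LRRIQ1-202 (5414 bases) took 46.4 ± 14% in treated and 7.23 ± 3.7% in vehicle libraries (SD, n = 3 each). PCDH12 had 6.81, 6.92 and 7.79 CPM in treated and 5.52, 4.02 and 5.44 CPM in vehicle libraries at day 6. The 572-base PCDH12-202 was listed at 0% in all treated libraries at day 6, against 0, 36.7 and 68.8% in vehicle libraries, and the vehicle library at 68.8% is the one with the high value. TIGAR, a fructose bisphosphatase induced by p53, had 16.1, 20.3 and 17.7 CPM in treated and 13.2, 13.8 and 12.2 CPM in vehicle libraries at day 6. Its 527-base non-coding transcript TIGAR-202 took 40.0, 0 and 0% in treated libraries, against 57.7, 51.1 and 57.7% in vehicle libraries. For these 3 genes every treated library had more reads than every vehicle library at day 6, the reverse of their order in the authors' means. Reads met only the day 12 ratio in 8 of the 24 highest-ranked genes: CATSPERG, COL7A1, PCDH12, GDPGP1, LRRIQ1, ADGRV1, RABEP2 and LRTOMT. COL7A1 had 21.5, 16.9 and 15.6 CPM in treated and 22.1, 21.8 and 21.1 CPM in vehicle libraries at day 6. Day 6 log2 ratios of reads were -0.27 in COL7A1, -0.34 in CATSPERG and -0.24 in RABEP2. Their length changes were 0.504, 0.641 and 0.315 (log2).

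METTL14, a subunit of the RNA m6A methyltransferase, was chosen for description after its values were seen. Its read sums were within 0.05 (log2) of vehicle at both days, at -0.03 at day 6 and 0.05 at day 12. The 432-base retained-intron transcript METTL14-202 took 9.24 ± 16% in treated and 28.5 ± 15.0% in vehicle libraries at day 6, and 40.9 ± 9.0% in treated and 20.1 ± 19.0% in vehicle libraries at day 12 (SD, n = 3 each). These shares overlapped between groups at both days. The read sum of LRTOMT was higher in treated cells at both days, by 1.09 and 2.86 (log2), but its sum agreed poorly with the authors' entry. Over all 81 genes, the transcript whose share moved most between treated and vehicle means moved by at least 20 percentage points in 21 genes at day 6, against 5.71% of genes at the level, and in 15 at day 12, against 10.5%. Transcripts without a protein-coding label took a median of 22.9% of a gene's TPM in treated and 26.8% in vehicle libraries at day 6, against 12.2% and 12.4% for genes at the level. At day 12 the shares were 24.8% in treated and 23.5% in vehicle libraries, against 13.1% and 12.7%. The median number of annotated transcripts was 8 in both.

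**Figure D4:**
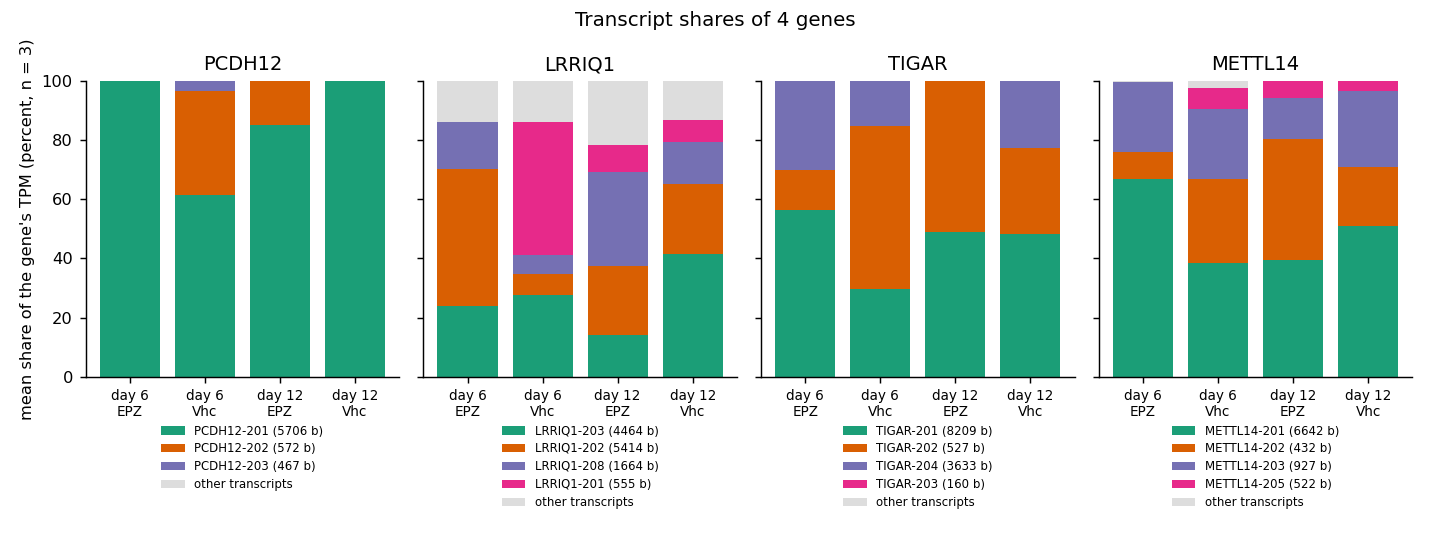
Mean share of each gene's TPM (y axis, percent, n = 3 libraries) given to its transcripts in the 4 groups (x axis; EPZ, EPZ011989; Vhc, vehicle) for PCDH12, LRRIQ1, TIGAR and METTL14, with transcript lengths in bases. The short LRRIQ1-201 took 0% in day 6 treated and 45.2% in day 6 vehicle cells, and TIGAR-202 took 13.3% in day 6 treated and 55.5% in day 6 vehicle cells.

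The 83 genes were also set side by side within each treatment. Between day 12 and day 6 the median log2 ratio was 0.92 in treated cells, against -0.03 for genes at the level, and -0.39 in vehicle cells, against 0.01. All 83 were higher at day 12 than at day 6 in treated cells, as were 48.0% of genes at the level. In vehicle cells 77 were lower at day 12 than at day 6, as were 47.7% of genes at the level. Vehicle means enter both chosen ratios, so a gene with a high day 6 vehicle mean or a low day 12 one was more likely to be chosen, and the comparison supports nothing. The difference between the days is the day 12 log2 ratio of treated to vehicle minus the day 6 one. The vehicle part, the log2 drop in vehicle as a percent of this difference, had a median of 28.2%. It was over 50% in 21 genes and under 10% in 13. PCDH12 (51.6%), ZACN (55.4%), CHAC1 (53.4%) and NDUFA1 (75.1%) were among the 21, and ACSL6 (5.86%), INSC (6.75%) and GDPD1 (0.652%) among the 13. In 66 genes the treated mean at day 12 exceeded the vehicle mean at day 6, and in 17 it did not. In 28 genes the day 12 vehicle mean was within 10% of the day 6 treated mean.

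**Figure D5:**
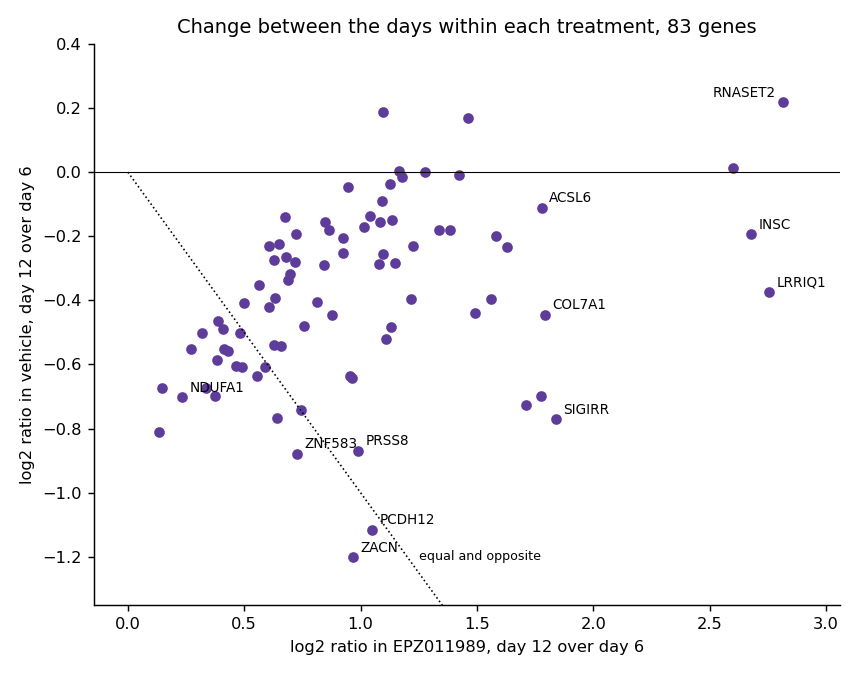
Log2 ratio of day 12 to day 6 means in treated cells (x axis) and in vehicle cells (y axis) for the 83 genes, from the authors' table. All points are right of 0, and 77 are below 0 on the vehicle axis; the dotted line marks an equal fall in vehicle and rise in treated cells.

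The day 12 vehicle libraries were spread on principal component 3 of log2 CPM, with -32.3 for replicate 1, -12.7 for replicate 2 and 2.5 for replicate 3. Replicate 1 was the lowest of its group in 44 of the 83 genes, and replicate 3 was the highest in 45. The rule gave 81 genes without replicate 1, of which 67 were among the 83. Without replicate 3 it gave 95, of which 79 were. Leaving out each library in turn gave 74 to 115 genes, and 29 of the 83 were chosen every time.

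edgeR's quasi-likelihood test on the rounded read sums called 33 of the 81 lower at day 6 (Benjamini-Hochberg adjusted p under 0.05), against 17.1% of the 15016 genes tested, and 4 higher (17.1% of all genes), namely PCDH12, LRRIQ1, LRTOMT and TIGAR. Without vehicle replicate 2 of day 6 it called 21 lower. At day 12 it called 59 higher, against 33.7% of all genes. Called in the chosen direction at both days were 30 of the 81, against 1.45% of all genes. The difference between the days was called in 65, each with a larger log2 ratio at day 12, against 22.7% of all genes in that direction. The called differences lay between 0.42 and 2.99 on the log2 scale. Day 12 against day 6 was called higher in treated cells in 60, against 27.9% of all genes. In vehicle cells it was called in 16, against 13.2%, of which 14 were lower, against 7.15%. With transcript length as an offset, the counts were 26 lower and 1 higher at day 6 (8.76% and 12.8% of all genes), 56 higher at day 12 (29.4%) and 1 between the days in vehicle (0.593%). The gene called higher was LRTOMT, while the day 6 log2 ratio turned to -0.58 in LRRIQ1 (edgeR adjusted p = 0.0105), -0.52 in PCDH12 (adjusted p = 0.433) and -0.37 in TIGAR (adjusted p = 0.471). These calls use the contrasts that chose the genes, and nothing is read from them.

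Of 19 lists of genes by function, 6 held 7 of the 83 (8.43%, against 6.04% of genes at the level) and 13 held none. Among the 13 were the lists for proliferation, cholesterol and fatty acid synthesis, heat shock, splicing factors, ion channels and extracellular matrix. The lists are short, with 42 genes at the level for ion channels and 33 for the matrix. COL7A1, ZACN, CHRNB1 and CATSPERG were among the 83 but in none of the lists. The integrated stress list held CHAC1 and DDIT3, of 30 genes tested. In that list edgeR called 3 genes higher and 13 lower at day 6, with a median log2 change of -0.2, and 7 higher and 13 lower at day 12, with a median of -0.11. Over all 15016 genes it called 2575 higher and 2569 lower at day 6, with a median of -0.02, and 5057 higher and 4993 lower at day 12, with a median of 0.02. DDIT3, the stress transcription factor CHOP, had 86.1, 135.3 and 66.3 in treated and 134.5, 124.9 and 140.4 in vehicle libraries at day 6. By day 12 it had 206.7, 238.5 and 170.3 in treated and 150.6, 130.2 and 174.8 in vehicle libraries. It overlapped at both days, unlike CHAC1.

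The synaptic vesicle and secretory list held SYT1. There 20 of 47 genes were called higher and 5 lower at day 6, and 26 higher and 9 lower at day 12, so SYT1 was on the less frequent side at day 6. In the authors' table SYT1 had 308.5, 340.3 and 317.9 in treated and 413.9, 416.1 and 448.8 in vehicle libraries at day 6. After 12 days its values were 2201.6, 1749.2 and 1919.6 in treated and 421.5, 446.7 and 422.1 in vehicle libraries. The lysosome and autophagy list, with 6 of 49 genes called higher and 9 lower at day 6 and 33 higher and 2 lower at day 12, held MAP1LC3A, a protein of autophagosome membranes. It had 239.7, 183.8 and 201.1 in treated and 282.1, 345.4 and 269.8 in vehicle libraries at day 6. Values at day 12 were 346.1, 378.8 and 373.3 in treated and 146.3, 269.9 and 261.5 in vehicle libraries. MAP1LC3A was apart at both days.

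TIGAR was in the list of cell cycle inhibitors and p53 targets, where 9 of 32 genes were called higher and 10 lower at day 6, and 12 higher and 13 lower at day 12. PCGF1, a subunit of Polycomb repressive complex 1, was in the list of Polycomb and chromatin regulators, where 15 of 90 were called higher and 22 lower at day 6, and 31 each way at day 12. It had 128.0, 242.9 and 145.9 in treated and 352.2, 149.3 and 177.5 in vehicle libraries at day 6. At day 12 it had 298.2, 182.5 and 208.0 in treated and 177.4, 157.7 and 128.5 in vehicle libraries. The day 6 mean of PCGF1 rests on 1 vehicle library at 352.2. MFNG was in the list for the Notch, Wnt and TGF-beta pathways, with 23 of 74 called higher and 15 lower at day 6, and 33 higher and 22 lower at day 12.

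By symbol, zinc finger genes made up 8 of the 83 (9.64%, against 4.3% of genes at the level). They were ZNF583, ZNF790, ZSCAN18, ZNF419, ZNF19, ZSCAN20, ZNF250 and ZNF394. Their day 12 ratios ran from 1.35 for ZNF394 to 4.03 for ZNF19. None of the 8 met both ratios in plain read sums. ZNF19, described after its values were seen, had 237.2, 196.4 and 315.4 in treated and 46.4, 78.2 and 61.1 in vehicle libraries at day 12, with no overlap. At day 6 it had 77.5, 73.8 and 77.6 in treated and 84.8, 128.9 and 93.9 in vehicle libraries. No gene of the solute carriers (1.79% of genes at the level), cytosolic ribosomal proteins (0.676%) or kinesins and dyneins (0.421%) was among the 83, which held 1 gene of respiratory complexes I to V (0.746%), NDUFA1.

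The 81 annotated genes were all protein-coding, as were 98.1% of genes at the level, and lay on 20 chromosomes (GRCh38, GENCODE release 29). Chromosome 1 held 10 (12.3%, against 9.98% of genes at the level), chromosome 19 held 8 (9.88%, against 6.92%) and chromosome 16 held 7 (8.64%, against 4.75%). The highest-ranked, CATSPERG, spans chr19:38335775-38370943 and INSC spans chr11:15112424-15247208, both on the plus strand. In 49 of the 81, an exon overlaps an exon of another annotated gene, on the same strand in 23 and on the other strand in 35. The share among genes at the level was not counted, so whether this is unusual is not known. The labels do not say whether libraries kept the strand, so reads of such pairs may not be told apart.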

How the data were processed

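RNA of MKL-1 cells was measured in 12 polyA-selected libraries, grouped by their titles. The labels' protocols give the treatment, and the submitters' processing notes name Salmon 1.2.0, FastQC, DESeq2 and the build hg38. The authors deposited, per library, estimated counts of reads (expected counts), TPM and effective length per transcript, and a normalized signal per gene for all libraries, whose scaling no source used here states.

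The 83 genes were taken from the normalized signal by the ratios given above. The genes, the lists and the tests were chosen with earlier results of these data known. Of 179883 transcripts, 168219 (93.5%) were matched by identifier to GENCODE release 29 genes, and unmatched ones held 3.08 to 3.58% of a library's reads. Reads were summed by gene and then rounded. Genes kept by filterByExpr (15016) were scaled by TMM and tested with edgeR 4.0.16 under R 4.3.3 (two-sided quasi-likelihood test, 1 fit of the 4 groups, common biological coefficient of variation 10.1%), with Benjamini-Hochberg adjustment over all genes and a threshold of 0.05. Simulated counts tested the fit. Mean effective length per gene was the TPM-weighted mean over its transcripts.

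Genes were named by a rule: the first 24 by the smaller of the log2 ratios, signs ignored, and up to 4 per list. The rule also took the 5 highest by TPM and 3 on each side of each limit. Alternatives were DESeq2 1.42.0 (size factors and its own test), library totals, no count filter, a length offset, limma 3.58.1 on log2 of the authors' signal with a pseudocount of 1 or 5 or a mean of at least 10, other limits of the rule, medians, a replicate block, and leaving out each library. Depth limits the low genes: 3 reads in a library, taken as the floor, cover counting error only.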

Additional observations from a re-analysis of the deposited data

Results flagged for a closer look

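By edgeR's test, the effect of treatment differed between the days in 65 of the 81 genes with read sums. All 65 had the larger log2 ratio at day 12, as did 22.7% of all 15016 genes by the same test. The median log2 difference was 0.97 over the 81, against 0.01 over all genes. The genes were chosen for opposite ratios at the days, which fixes this direction, so nothing is read from the count. The largest differences of the 65 were in INSC (2.99), RNASET2 (2.79) and NFKB2 (2.54). Their read sums lay in the chosen direction at both days. NFKB2 was the least certain, with a standard error of 0.86, against 0.26 in INSC and 0.16 in RNASET2. Its day 12 vehicle libraries had 0.386, 1.51 and 5.8 CPM, and its sum agreed poorly with the authors' entry. In TIGAR, where read sums were higher in treated cells at both days, the difference was 0.10.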

How the results depend on the processing

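The number of genes the rule takes depends on its limits: a level minimum of 20 gave 129 genes, a ratio of 1.2 gave 240 and a ratio of 1.5 gave 15. Medians gave 113, of which 57 were among the 83, and TMM-scaled read sums gave 76, of which 31 were. Read sums divided by the relative effective length, an alternative chosen after seeing the data, gave 90, of which 63 were. Ratios within replicate numbers, a replicate block, gave 86.

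Leaving out each library gave 74 to 115 genes by the rule, 27 to 37 whose read sums meet both ratios, 21 to 39 called lower at day 6, 55 to 65 called higher at day 12, 58 to 67 called in the difference between the days, 55 to 68 in treated cells between the days and 2 to 32 in vehicle cells between the days. The lowest count at day 6, 21, came without replicate 2 of day 6 vehicle. The vehicle count of 16 fell to 2 without replicate 2 and 3 without replicate 3 of day 6 vehicle, to 6 without replicate 1 and 7 without replicate 2 of day 12 vehicle, and was 32 without replicate 3 of day 12 vehicle. It was 1 with the length offset, 1 with limma at a pseudocount of 1, 1 at a pseudocount of 5 and 2 with a mean of at least 10, and the cause was not tested. The other alternatives kept each count within 1.5 times, but the genes called were not always the same. With the length offset, 20 of the 26 called lower at day 6 were among the 33 of the main test. For limma at a pseudocount of 1 these were 21 of 32. Shares of all genes called were counted only for the main test and the length offset, so the other counts have no background here.

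Same-numbered libraries correlated in their deviations by -0.072 to -0.033 at day 6 and -0.019 to 0.087 at day 12, so the numbers were not taken to pair them. With the replicate number as a block edgeR called 35 lower at day 6, 60 higher at day 12, 66 in the difference, 61 in treated and 23 in vehicle cells between the days. The shares of all genes called under this fit were not counted, so nothing is read from these counts.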
